A study of Mus musculus with 12 samples.

Results

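The genes described are BMP ligands, BMP-responsive Id genes and related members of the pathway in the embryonic mouse cortex: the ligands Bmp4, Bmp6 and Bmp7, the targets Id1, Id2, Id3 and Id4, the homeobox genes Msx1 and Lmx1a, and Bambi. They were chosen by name, and every probe set annotated to 1 of these genes alone was taken. These are 10 of 18194 named genes, read by 17 of 45101 probe sets. Of the 10 genes, 7 were tested and 3 (Bmp4, Bmp6 and Lmx1a) were too dim on the arrays to enter the test.

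Bone morphogenetic proteins (BMPs) are secreted ligands that bind paired type I and type II receptor kinases, and the receptors activate SMAD proteins that enter the nucleus with Smad4 and switch on target genes. The Id genes are classic targets: their products have a helix-loop-helix domain but no DNA-binding region, and they bind E proteins and so keep proneural factors off the DNA. In the embryonic forebrain the dorsal midline, which includes the cortical hem and the choroid plexus, is a source of BMPs and expresses Msx1 and Lmx1a, while Id2 and Id4 are also expressed in the cortex itself.

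The study measured RNA from pieces of cortex at embryonic day 14 on 1-colour oligonucleotide arrays. It set knockout embryos (KO) that lack AP2gamma, a transcription factor encoded by Tfap2c, against wild-type embryos (WT) in a caudal and in a rostral piece. Each of the 4 groups held 3 biological replicates, numbered by animal: 1, 2 and 13 for caudal KO, 4, 6 and 14 for caudal WT, 7, 8 and 15 for rostral KO, and 10, 12 and 16 for rostral WT, which is the order in which their values are given. The knockout allele, any Cre driver and the strain are not given in the sources used here.

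All values are log2 values as deposited, and the median of the whole table, 5.21, served as the limit below which a value is called dim. Array medians lay between 5.21 and 5.22. Tfap2c read 7.71, 7.86 and 7.44 on caudal KO arrays, against 9.19, 8.84 and 8.64 on caudal WT arrays, and 8.11, 8.63 and 8.09 on rostral KO arrays, against 8.54 to 9.06 on rostral WT arrays. The genotypes did not overlap in caudal cortex, but rostral KO array 8 lay above rostral WT array 16. Averaged over the regions Tfap2c fell in KO, with a difference of -0.91 ± 0.14 (SE, limma adjusted p = 0.0384, against a threshold of 0.05). That call held in 7 of 20 alternatives (adjusted p from 0.0017 to 0.271) and was lost without any 1 of arrays 1, 2, 4, 6, 7, 10, 12, 13 or 15. The difference was -1.22 ± 0.19 in caudal cortex (limma adjusted p = 0.0843, and 0.00591 with animals 13 to 16 as a block) and -0.59 ± 0.19 in rostral cortex (adjusted p = 0.633). Transcript remained above the table median on all KO arrays, and whether its probe set lies in the deleted part is not known here. The region labels were checked with patterning genes, and 3 of 3 tested caudal genes passed as higher in caudal than in rostral cortex in both genotypes. Of 6 listed rostral genes 4 were tested. All 4 were lower in caudal cortex, and 2 of 4 passed in each genotype. Over all tested genes, 0.942% passed between regions in WT and 0.950% in KO. Rostral KO array 15 stood apart in meningeal genes, with a mean of 8.18 over 4 tested genes against 4.96 to 5.97 on the other 11 arrays, and caudal WT array 6 in choroid plexus genes, with a mean of 7.35 over 3 tested genes and Ttr at 13.63, against 2.44 to 6.37 for that mean on the other arrays. The 3 choroid plexus genes include Otx2, which read 4.76 to 7.94 on rostral arrays and -0.67 to 1.61 on the other caudal arrays. Ttr read at most 5.15 on rostral arrays. The part of meningeal and choroid plexus tissue in the values below was not tested.

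Because AP2gamma binds DNA, the 250 bases before the transcription start are shown for Id2 and Id3, which had the smallest p-values of the members in caudal KO against WT cortex, and for Id4, a gene of cortical progenitors. They are RefSeq sequences on build GRCm38.p6, written 5' to 3' on the strand of the gene. Of the 10 genes, 7 were searched for motifs, and Bambi, Bmp7 and Id1 were not. Capitals mark matches to the AP2 palindrome GCCNNNGGC or to GGCGCC, a GC-rich element bound by SMAD proteins. The Id2 window is chr12:25096093-25096342 on the minus strand, the Id3 window chr4:136143572-136143821 on the plus strand and the Id4 window chr13:48260866-48261115 on the plus strand.
Id2: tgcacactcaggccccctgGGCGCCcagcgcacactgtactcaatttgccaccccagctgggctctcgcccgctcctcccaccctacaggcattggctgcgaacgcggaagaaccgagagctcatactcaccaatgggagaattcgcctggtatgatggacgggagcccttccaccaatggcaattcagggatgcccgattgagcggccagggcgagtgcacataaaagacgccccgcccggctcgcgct
Id3: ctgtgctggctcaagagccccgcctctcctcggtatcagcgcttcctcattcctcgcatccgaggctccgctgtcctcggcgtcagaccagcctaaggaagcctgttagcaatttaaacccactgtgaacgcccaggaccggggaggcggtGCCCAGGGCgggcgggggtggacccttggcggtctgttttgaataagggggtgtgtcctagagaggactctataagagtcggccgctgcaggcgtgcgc
Id4: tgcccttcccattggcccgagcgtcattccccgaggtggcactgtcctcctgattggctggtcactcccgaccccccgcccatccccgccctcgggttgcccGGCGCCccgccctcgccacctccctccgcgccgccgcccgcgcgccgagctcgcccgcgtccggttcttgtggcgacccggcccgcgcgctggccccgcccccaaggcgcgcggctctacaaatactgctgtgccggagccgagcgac
Among the 7 genes searched, the AP2 palindrome was present once, in Id3, where it starts 99 bases before the transcription start. It was present in 13.7% of 32851 promoter windows of the same length. GGCGCC was present in Id2, starting 231 bases before the start, and in Id4, starting 148 bases before it, and in 9.59% of all windows. The windows of Id2 and Id3 hold 62.8% G and C and that of Id4 75.6%, against a median of 52.4% over all windows. Both motifs are rich in G and C, and the shares over all windows were not matched for this content. Both motifs read the same on either strand and may overlap each other. The matches describe letters in these windows only, and no binding was measured.

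In KO against WT, Id2 and Id3 had the smallest p-values of the members in caudal cortex and in the average over regions, with differences of opposite sign. Averaged over the regions, the Id2 mean was 1.44-fold higher in KO and the Id3 mean 0.665 times that of WT, while Id1 and Id4 differed by at most 1.03-fold. No member passed the adjusted threshold: 0 of 7 did in caudal cortex, where 0% of 11785 tested genes passed by limma, 0 of 7 in rostral cortex, where 0% passed, and 0 of 7 in the average over regions, where 0.0339% passed. At an unadjusted p under 0.05, 2 of 7 members (Id2 and Id3) were counted in caudal cortex, where 4.06% of all tested genes were, and 1 of 7 (Id2) in rostral cortex, where 6.69% were. In the average the count was 2 of 7 (Id2 and Id3), beside 7.53% of all genes. KO values lay clear of WT values for 1 of 7 members (Id2) in caudal cortex and for 2 of 7 (Id2 and Id3) in rostral cortex, against 7.52% and 13.0% of all tested genes. Only Id2 among the 7 showed no overlap in the same direction in both regions, which 1.18% of all tested genes did. The median difference over the 7 members was 0.04 in each region, beside -0.0021 in caudal and -0.022 in rostral cortex over all genes.

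**Figure D1:**
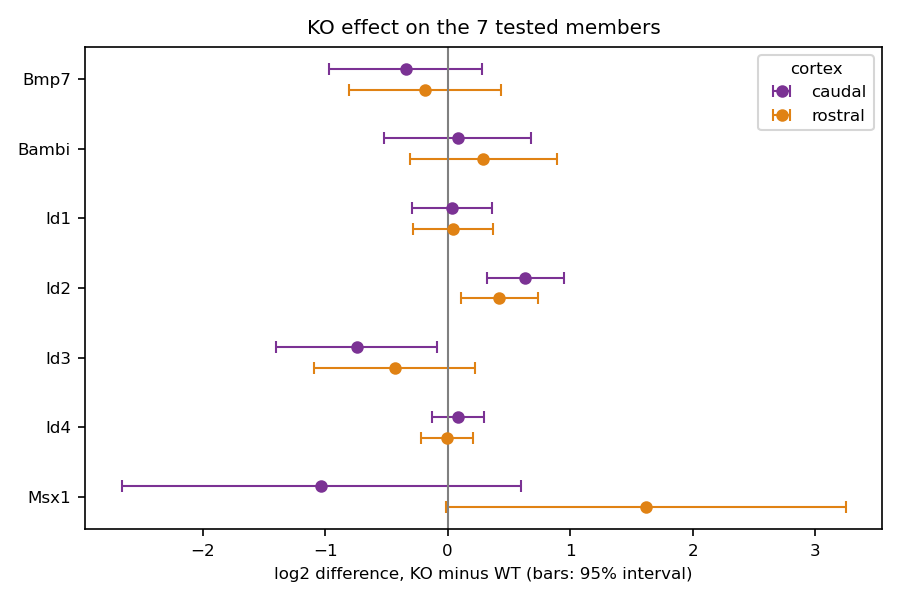
Log2 difference, KO minus WT, for the 7 tested members in caudal (purple) and rostral (orange) cortex, with 95% intervals from the limma fit. The Id2 intervals lie above 0 in both regions (0.32 to 0.95 in caudal cortex), and those of Msx1 are the widest of the 7 genes.

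Id2, whose product keeps E proteins off DNA, read 11.54, 12.10 and 12.03 on the caudal KO arrays, against 11.10, 11.35 and 11.33 on the caudal WT arrays (probe set 1435176_a_at). In rostral cortex it read 11.72, 11.92 and 11.56 on KO arrays, against 11.53, 11.15 and 11.25 on WT arrays. All KO arrays lay above all WT arrays in each region, and in rostral cortex the margin was narrow, between KO array 15 and WT array 10. The difference was 0.63 ± 0.14 in caudal cortex (SE, 95% interval 0.32 to 0.95), 1.55-fold, with adjusted p = 0.586 by limma. It was 0.42 ± 0.14 in rostral cortex (limma adjusted p = 0.633). Averaged over both regions it was 0.53 ± 0.10 (limma adjusted p = 0.14), 14th smallest p of 11785 tested genes. Over 20 alternatives the adjusted p of this average ran from 0.0317 to 0.462 and passed in 1 of them, the fit without caudal KO array 1, with a difference of 0.62. The effects in the 2 regions differed by 0.21 ± 0.20 (limma adjusted p = 0.999).

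The other Id2 probe sets also had higher means in KO. Probe set 1422537_a_at read 10.96, 11.14 and 11.36 on caudal KO arrays, against 10.31, 10.71 and 10.99 on caudal WT arrays, and 11.09, 11.02 and 10.78 on rostral KO arrays, against 10.77, 10.62 and 10.99 on rostral WT arrays. Its groups overlapped in both regions, and the average difference was 0.32 ± 0.11 (limma adjusted p = 0.589, each probe set tested on its own). The third, 1453596_at, read 7.10, 6.94 and 7.29 on caudal KO arrays, against 6.34, 6.44 and 7.22 on caudal WT arrays, and 7.40, 7.28 and 6.80 on rostral KO arrays, against 6.67, 6.43 and 7.15 on rostral WT arrays. Its groups overlapped as well, with an average difference of 0.42 ± 0.18 (limma adjusted p = 0.669).

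Id3 encodes another inhibitor of E proteins and is a target of BMP signalling in many tissues. It read 7.27, 5.95 and 5.92 on caudal KO arrays, against 7.21, 7.34 and 6.81 on caudal WT arrays (probe set 1416630_at). KO arrays 2 and 13 lay below every WT array, while KO array 1 lay among them. The caudal difference was -0.74 ± 0.31 (limma adjusted p = 0.998), and it was -1.19 without KO array 1 and -0.51 without KO array 13. In rostral cortex Id3 read 6.55, 6.48 and 6.73 on KO arrays, against 6.91, 6.79 and 7.37 on WT arrays, with no overlap. There the difference was -0.43 ± 0.31 (limma adjusted p = 0.819). Averaged over regions it was -0.59 ± 0.22 (limma adjusted p = 0.552), with adjusted p between 0.121 and 0.869 over 19 alternatives.

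The caudal KO arrays with low Id3 were also those with a low mean of hem genes. The mean of the 7 tested cortical hem genes was 6.33, 4.49 and 4.15 on caudal KO arrays 1, 2 and 13, against 6.16, 6.56 and 5.19 on caudal WT arrays 4, 6 and 14. In rostral cortex it was 6.06, 6.18 and 5.18 on KO arrays 7, 8 and 15, against 6.37, 6.20 and 5.90 on WT arrays 10, 12 and 16. None of the 7 hem genes passed in KO against WT in either region, and of 9 on the list, Wnt2b was dim and Gdf7 had no probe set of its own. Wnt8b, a Wnt ligand gene of the hem, read 6.20, 3.94 and 4.11 on caudal KO arrays, against 6.79, 7.06 and 4.85 on caudal WT arrays. By group means, 6 of the 7 hem genes were lower and 1 (Rspo3) was higher in caudal KO than in caudal WT cortex. Rspo3 read 8.55, 8.00 and 8.23 on caudal KO arrays, against 7.89, 8.39 and 8.14 on caudal WT arrays. Lhx5 read 5.49 on caudal KO array 2, above the caudal WT arrays (4.4 to 5.2). Most of the 7 hem genes, Wnt8b among them, were dim on caudal KO arrays 2 and 13. Caudal WT array 14 and rostral KO array 15 had the next lowest hem means (5.19 and 5.18), with Id3 at 6.81 and 6.73. The part of hem tissue in the Id3 and Id2 values was not tested. In such bulk tissue, fewer cells of a type and less RNA per cell cannot be told apart.

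**Figure D2:**
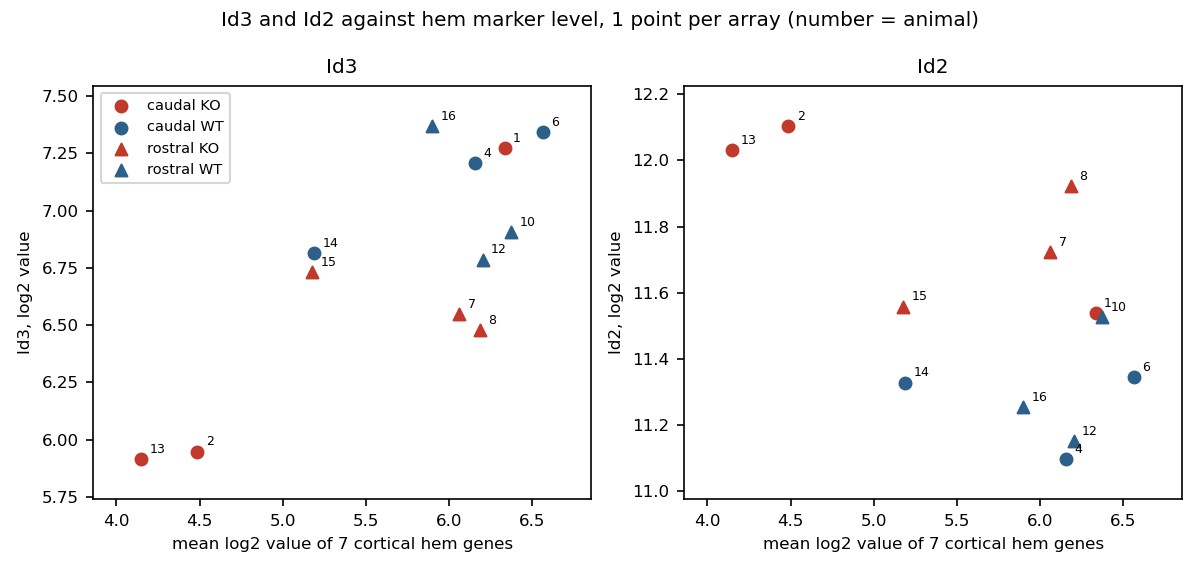
Log2 value of Id3 (left) and of Id2 (right) against the mean log2 value of 7 cortical hem genes, with 1 point per array, circles for caudal and triangles for rostral cortex, red for KO and blue for WT, and numbers for animals. Caudal KO arrays 2 and 13 have the lowest hem means (4.49 and 4.15), where most of the 7 genes are dim. They also have the lowest Id3 values (5.95 and 5.92) and the highest Id2 values (12.10 and 12.03, probe set 1435176_a_at). On Id2 probe set 1453596_at, caudal KO array 2 reads 6.94, below rostral KO array 7 at 7.40.

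Id1, a further inhibitor of E proteins, had KO values that overlapped its WT values. It read 7.64, 7.40 and 7.31 on caudal KO arrays, against 7.23, 7.53 and 7.47 on caudal WT arrays, and 7.02, 7.36 and 7.42 on rostral KO arrays, against 7.22, 7.09 and 7.36 on rostral WT arrays. The KO difference was 0.04 ± 0.15 in both (limma adjusted p = 0.998 in caudal and 0.98 in rostral cortex). Both signs turned when single arrays were left out, with values given in the closing section.

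Id4, expressed in cortical progenitors, read 12.44, 12.40 and 12.22 on caudal KO arrays, against 12.44, 12.12 and 12.24 on caudal WT arrays (probe set 1423259_at). In rostral cortex it read 12.24, 12.00 and 11.91 on KO arrays, against 11.99, 12.03 and 12.15 on WT arrays. The genotypes overlapped in both regions, and the KO difference was 0.09 ± 0.10 in caudal and -0.01 ± 0.10 in rostral cortex (limma adjusted p = 0.998 and 0.994). Its other probe sets, 1423260_at and 1450928_at, ran from 10.72 to 11.42 and from 11.30 to 12.00 over the 12 arrays, with average KO differences of -0.09 ± 0.10 and 0.11 ± 0.11 (limma adjusted p = 0.886 and 0.866).

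**Figure D3:**
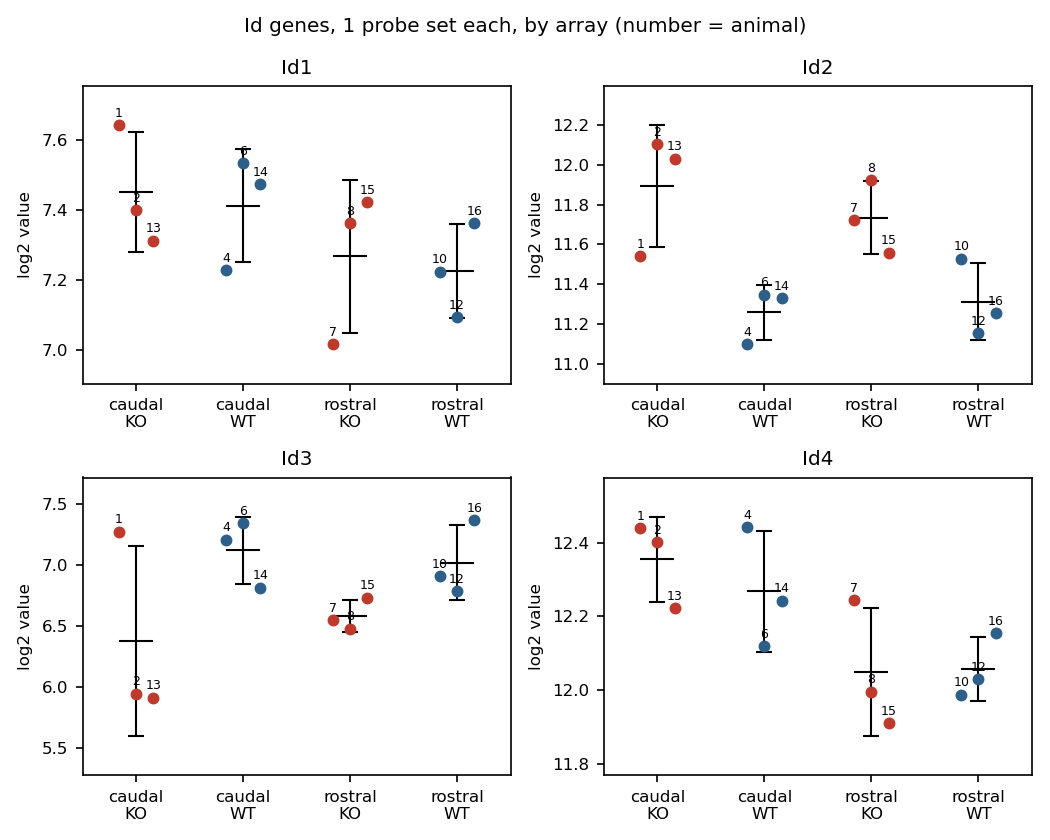
Log2 values of Id1, Id2, Id3 and Id4 on each of the 12 arrays, 1 probe set per gene, by group (KO red, WT blue, numbers for animals, bars for the mean and SD of 3 arrays). The Id2 points of KO lie above those of WT in each region (lowest caudal KO value 11.54, highest caudal WT value 11.35), and the Id3 points of caudal KO arrays 2 and 13 lie near 5.9.

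No difference between KO and WT passed for the 3 ligands. Bmp7, a ligand made in the dorsal midline and meninges, was the one ligand bright enough to test. It read 6.08, 6.06 and 5.65 on caudal KO arrays, against 6.60, 6.69 and 5.53 on caudal WT arrays, and 5.96, 6.28 and 6.68 on rostral KO arrays, against 6.41, 6.47 and 6.60 on rostral WT arrays (probe set 1435479_at). The genotypes overlapped in both regions, with the lowest value on WT array 14, and the KO difference was -0.34 ± 0.29 in caudal cortex (limma adjusted p = 0.998) and -0.18 ± 0.29 in rostral cortex (adjusted p = 0.947). The caudal difference was -0.72 without WT array 14 and -0.13 without animals 6 and 12, and the rostral one -0.37 without KO array 15 and -0.010 without KO array 7. The other Bmp7 probe sets, 1418910_at and 1432410_a_at, were dim on all 12 arrays and were not tested. For 1432410_a_at the caudal KO arrays (0.62, 1.06 and 1.38) lay below the caudal WT arrays (1.81, 3.38 and 2.34), all of them below the table median.

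Bmp4, the ligand of the dorsal midline, exceeded the table median on 2 of 12 arrays. It read 4.35, 4.02 and 4.03 on caudal KO arrays, against 4.63, 5.53 and 3.67 on caudal WT arrays, and 4.26, 4.46 and 5.27 on rostral KO arrays, against 4.01, 4.03 and 4.62 on rostral WT arrays. The 2 arrays above the limit were caudal WT array 6, with its high choroid plexus genes, and rostral KO array 15, with its high meningeal genes. Bmp6, a ligand of the same family, was dim on every array, with 3.24, 2.65 and 1.01 on caudal KO arrays, against 2.56, 4.50 and 1.25 on caudal WT arrays, and 2.85, 3.46 and 3.90 on rostral KO arrays, against 3.17, 3.34 and 1.80 on rostral WT arrays. The genotypes overlapped for both genes in both regions. With no filter on low values, the caudal KO difference was -0.48 ± 0.48 for Bmp4 and -0.47 ± 0.83 for Bmp6 (limma adjusted p = 0.999 for both, over 18194 genes).

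Bambi encodes a membrane protein that resembles a type I receptor without its kinase and damps BMP signalling. It read 6.29, 5.96 and 5.41 on caudal KO arrays, against 5.82, 6.19 and 5.40 on caudal WT arrays, and 6.80, 6.39 and 6.26 on rostral KO arrays, against 6.53, 6.08 and 5.96 on rostral WT arrays. The genotypes overlapped, and the KO difference was 0.08 ± 0.28 in caudal and 0.29 ± 0.28 in rostral cortex (limma adjusted p = 0.998 and 0.875). In all 4 groups the array with the highest animal number (13, 14, 15 or 16) was the lowest for Bambi. The same held for 1227 of 11785 tested genes (10.4%), and for none of the other 6 tested members.

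Msx1, a homeobox target of BMP signalling in the dorsal midline, varied more among replicates than the other tested members. It read 6.16, 5.09 and 3.99 on caudal KO arrays, against 6.19, 6.51 and 5.64 on caudal WT arrays, and 5.82, 5.99 and 6.00 on rostral KO arrays, against 5.93, 4.88 and 2.13 on rostral WT arrays (probe set 1448601_s_at). Of the 12 values, 8 exceeded the table median, and rostral WT array 16 was the lowest. The KO difference was -1.03 ± 0.76 in caudal cortex (limma adjusted p = 0.998) and 1.62 ± 0.76 in rostral cortex (adjusted p = 0.741). The rostral value was 0.53 without WT array 16 and 0.48 with dim values raised to the table median, and the caudal one -0.49 without KO array 13. The effects in the 2 regions differed by -2.65 ± 1.07 (limma adjusted p = 0.999), or by -1.06 with dim values raised. No member passed for this difference of effects, nor did any other gene (0% of those tested), and 1 of 7 members (Msx1) had an unadjusted p under 0.05, as 3.04% of all genes did.

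A second Msx1 probe set, 1417127_at, was dim on all arrays. It read 4.31, 3.14 and 4.01 on caudal KO arrays, against 4.28, 4.94 and 1.84 on caudal WT arrays, and 4.67, 3.91 and 5.10 on rostral KO arrays, against 2.78, 3.88 and 3.68 on rostral WT arrays. In rostral cortex its KO arrays lay above its WT arrays, and in caudal cortex they overlapped.

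Lmx1a, a homeobox gene of the roof plate and cortical hem, was dim on all arrays. It read 3.71, 1.67 and 1.38 on caudal KO arrays, against 2.62, 4.95 and 3.41 on caudal WT arrays, and 4.25, 2.53 and 2.67 on rostral KO arrays, against 3.65, 4.43 and 3.57 on rostral WT arrays. The lowest values were on caudal KO arrays 2 and 13, the arrays with the lowest hem means and Id3 values. With no filter, the difference averaged over regions was -1.07 ± 0.54 (limma adjusted p = 0.773).

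**Figure D4:**
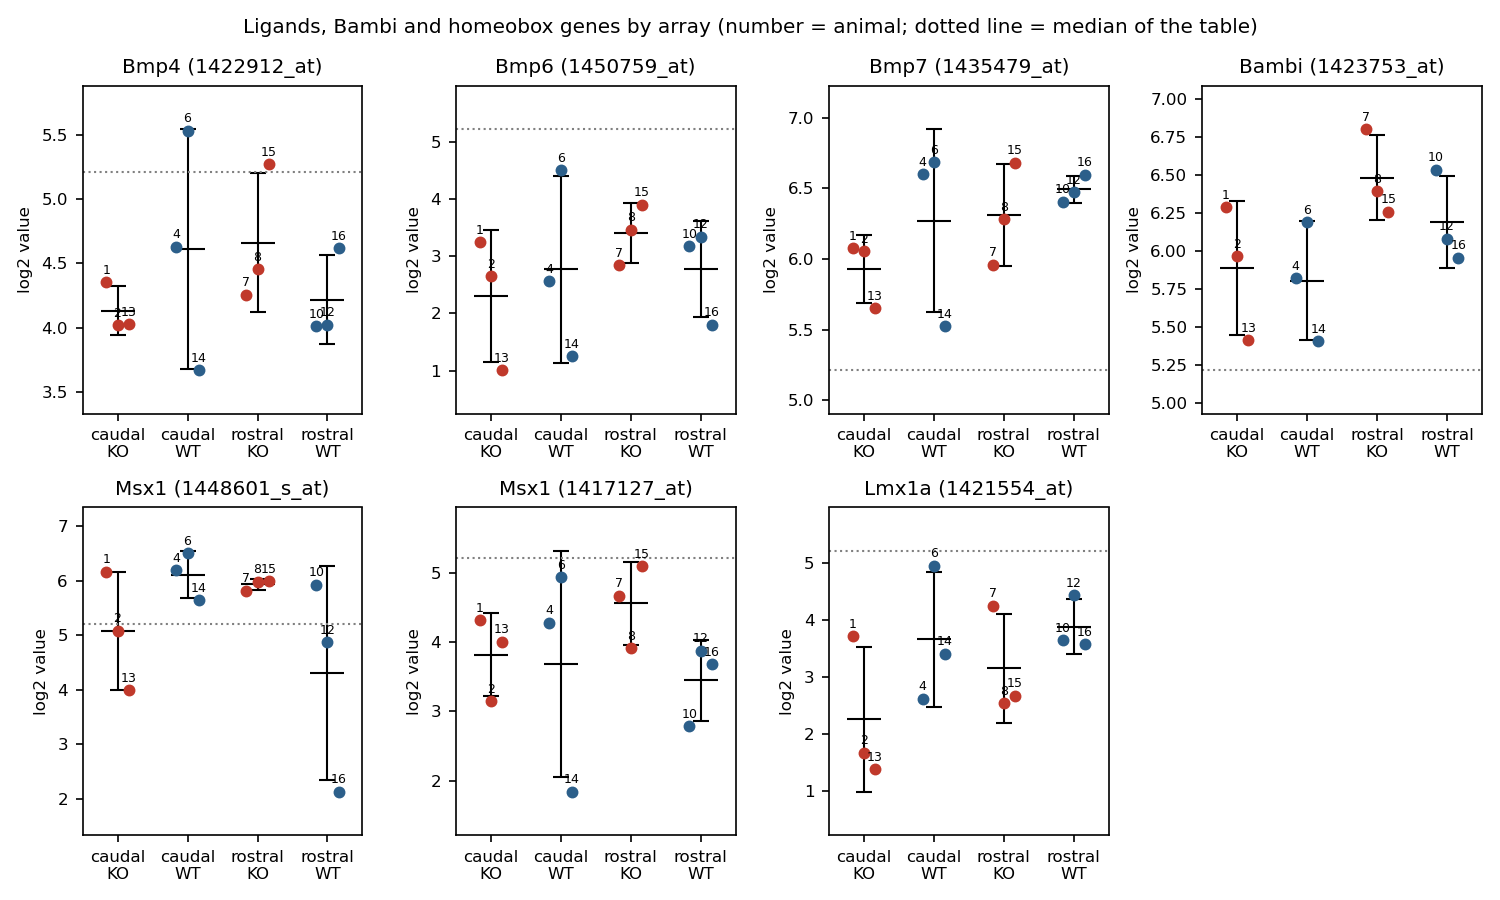
Log2 values of Bmp4, Bmp6, Bmp7, Bambi, both Msx1 probe sets and Lmx1a on each of the 12 arrays by group (KO red, WT blue, numbers for animals, bars for the mean and SD of 3 arrays, dotted line for the table median of 5.21). Bmp6 and Lmx1a lie below the line on every array, and the first Msx1 probe set drops to 2.13 on rostral WT array 16.

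The members differed in their spread among replicates. The within-group SD was 1.14 for Msx1 (above that of 99.1% of tested genes), 0.44 for Id3, 0.39 for Bmp7 and 0.36 for Bambi. It was 0.21 for Id2, 0.17 for Id1 and 0.14 for Id4, beside a median of 0.20 over all tested genes.

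Between caudal and rostral cortex, no member passed in either genotype. In WT this was 0 of 7, against 0.942% of 11785 tested genes (30 higher and 81 lower in caudal cortex by limma), and in KO 0 of 7, against 0.950%. At an unadjusted p under 0.05, 1 of 7 members was counted in WT (Msx1) and 1 of 7 in KO (Id4), beside 10.4% and 13.2% of all genes. Caudal and rostral arrays overlapped for all 7 members in both genotypes, while they did not overlap for 13.9% of tested genes in WT and 20.9% in KO. Id4 was 0.30 ± 0.10 higher in caudal than in rostral KO cortex (limma adjusted p = 0.193) and 0.21 ± 0.10 higher in caudal WT cortex (adjusted p = 0.491). Bambi had a caudal minus rostral difference of -0.60 ± 0.28 in KO (limma adjusted p = 0.383) and of -0.39 ± 0.28 in WT. For Msx1 the WT difference was 1.80 ± 0.76 (limma adjusted p = 0.417), with rostral WT array 16 at 2.13.

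Among the 7 tested members, the levels of Id2 (probe set 1435176_a_at) and Id3 ran against each other over the 12 arrays. The other Id2 probe sets did not enter this comparison. Pearson's r was -0.83 (permutation p = 0.00088, adjusted over 21 pairs of members 0.0185) and Spearman's rho -0.76 (permutation p = 0.00607, adjusted 0.127). Without caudal KO arrays 2 and 13, which lie farthest from the median of Id2, r was -0.62. Within groups, after the group means were taken out, it was -0.71, over the 6 KO arrays -0.92 and over the 6 WT arrays -0.15. The r within groups was not tested. The relation was not seen over the WT arrays alone. No other pair passed after adjustment, and this pair passed by r but not by rho. The genotype difference in both genes enters the r over all 12 arrays. It also enters the permutation p-values, because arrays were shuffled over all groups and not within them.

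The genes most alike in pattern over the 12 arrays, by Pearson's r, were Tapt1 (0.89) and Arpc5 (0.87) for Id2, Nfkb2 (0.95) and Toe1 (0.91) for Id3, and Dtymk (0.94) for Id4. For Bmp7 the highest r was with Rbm43 (0.88), for Id1 with Gap43 (0.87), for Bambi with Slc25a20 (0.93) and for Msx1 with 4933427D06Rik (0.94). Over all tested genes the median of the highest r was 0.91, with quartiles of 0.888 and 0.937, so such values are common with 12 arrays.

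Other parts of the pathway were read from lists of ligands, receptors, SMADs, antagonists, further targets and E proteins. In KO against WT, 0 of 6 tested receptors, 0 of 7 SMADs and their inhibitors, 0 of 6 extracellular antagonists, 0 of 3 further targets and 0 of 3 E proteins passed in either region or in the average. Smad6 and Smad7 are on both the SMAD list and the list of further targets. The median caudal difference was 0.08 over the receptors, 0.08 over the SMADs and 0.04 over the antagonists, beside -0.0021 over all genes. In rostral cortex these medians were -0.11, -0.079 and -0.018, beside -0.022 over all genes, and in the average -0.014, 0.0012 and -0.018, beside -0.011. Over the 3 further targets (Smad6, Smad7 and Hey1) the median was -0.09 in caudal cortex, -0.29 in rostral cortex and -0.19 in the average. Of 11 other BMP and GDF ligands, 1 was tested, Bmp5, with a caudal KO difference of -0.29 ± 0.41 (limma adjusted p = 0.998). That difference was -0.55 without KO array 1 and -0.0002 without animals 6 and 12.

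Smad7, an inhibitory SMAD that BMP signalling induces, read 7.16, 6.84 and 7.07 on caudal KO arrays, against 6.31, 6.63 and 5.83 on caudal WT arrays. The groups did not overlap, and the difference was 0.77 ± 0.20 (limma adjusted p = 0.861). In rostral cortex it read 6.90, 6.61 and 6.60 on KO arrays, against 6.80, 6.49 and 6.66 on WT arrays, with a difference of 0.05 ± 0.20 (limma adjusted p = 0.98). The effects in the 2 regions differed by 0.72 ± 0.28 (limma adjusted p = 0.999). A second Smad7 probe set, 1443771_x_at, had a KO difference of 0.08 ± 0.41 in caudal cortex (limma adjusted p = 0.999) and 0.56 ± 0.41 in rostral cortex (adjusted p = 0.859). Its difference of the KO effects, -0.48 ± 0.57 (limma adjusted p = 1), was opposite in sign to that of the first probe set.

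The antagonist Fst, which binds activins and some BMPs, had an average KO difference of 0.49 ± 0.17 (limma adjusted p = 0.528). Smad5, which carries the BMP signal, had one of -0.24 ± 0.08 (limma adjusted p = 0.528), and Hey1, a target shared with the Notch pathway, one of -0.34 ± 0.15 (adjusted p = 0.628).

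Between regions, 1 of 6 tested receptors passed as lower in caudal WT cortex, where 0.942% of tested genes passed in either direction, and 1 of 6 antagonists as higher in caudal KO cortex, where 0.950% did. The type I receptor gene Bmpr1b read 6.07, 5.70 and 5.73 on caudal WT arrays, against 7.17, 7.34 and 7.30 on rostral WT arrays. It was lower in caudal WT cortex with no overlap, by a difference of -1.44 ± 0.22 (limma adjusted p = 0.00802), which lost the threshold without animals 6 and 12 (-1.34, adjusted p = 0.0922). On KO arrays it read 5.83, 6.36 and 6.61 in caudal, against 7.01, 7.44 and 6.84 in rostral cortex, a difference of -0.83 ± 0.22 (limma adjusted p = 0.0941). The difference of the KO effects, 0.61 ± 0.31, did not pass (limma adjusted p = 0.999).

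Bmper, a secreted BMP-binding protein, showed the opposite regional order. It read 8.49, 8.02 and 8.18 on caudal KO arrays, against 7.22, 7.25 and 6.58 on rostral KO arrays. It was higher in caudal KO cortex, by 1.21 ± 0.18 (limma adjusted p = 0.00791, past the threshold in all 21 alternatives). On WT arrays it read 8.08, 8.46 and 8.21 in caudal, against 7.50, 7.65 and 7.66 in rostral cortex, a difference of 0.65 ± 0.18 with no overlap (limma adjusted p = 0.133). Rostral KO arrays lay below rostral WT arrays, with a difference of -0.58 ± 0.18 (limma adjusted p = 0.633), and -0.36 without KO array 15. The difference of the KO effects was 0.56 ± 0.26 (limma adjusted p = 0.999).

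Markers of the ganglionic eminence and its interneurons, which lie beside the cortex, also differed between the pieces. Of 12 listed genes 10 were tested, 9 of 10 were lower in caudal than in rostral cortex in both genotypes, and 1 of 10 passed in each. The median regional difference was -1.13 in KO and -0.91 in WT, beside -0.015 and -0.025 over all genes. Their mean level was 5.41 to 6.29 on caudal KO arrays, against 6.69 to 8.03 on rostral KO arrays, and 5.45 to 6.20 on caudal WT arrays, against 6.76 to 7.40 on rostral WT arrays. Their part in the regional values of Bmpr1b, Bmper and the members was not tested.

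**Figure D5:**
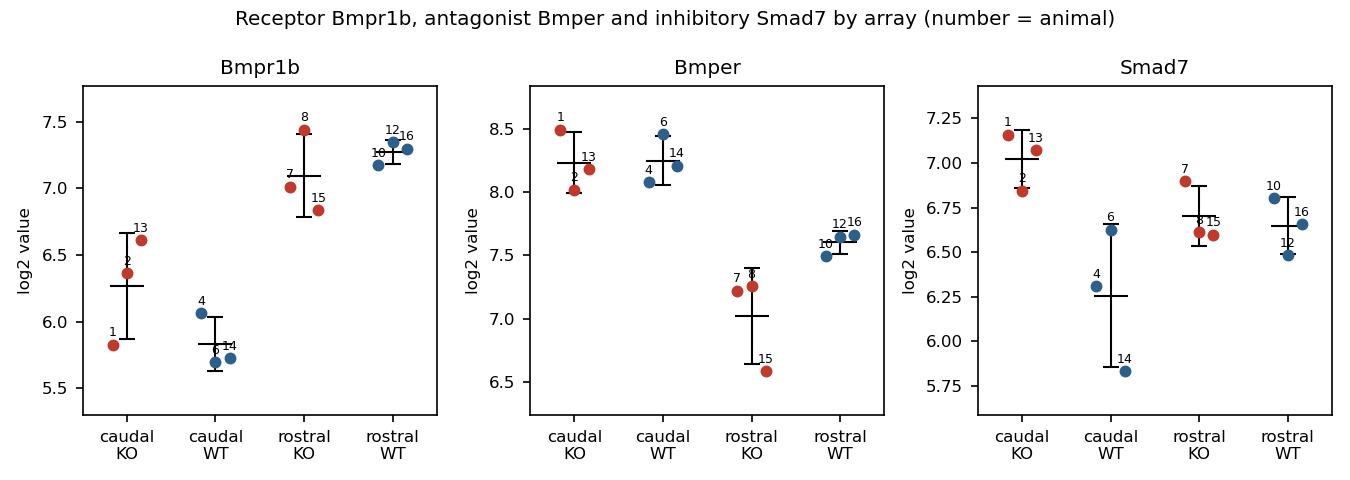
Log2 values of the receptor gene Bmpr1b, the antagonist gene Bmper and the inhibitory Smad7 on each of the 12 arrays by group (KO red, WT blue, numbers for animals, bars for the mean and SD of 3 arrays). Bmpr1b is lower and Bmper higher on caudal than on rostral arrays, and Smad7 is higher on the 3 caudal KO arrays (6.84 to 7.16) than on the 3 caudal WT arrays (5.83 to 6.63).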

How the data were processed

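The table deposited by the authors gives log2 values of 45101 probe sets on 12 arrays. The unit was read from the values (-3.81 to 14.02, array medians 5.21 to 5.22), and the background correction and normalisation are not given in the sources used here. Per the labels, 400 ng of total RNA was amplified and labelled with biotin. Values were used as deposited. The platform annotation names 1 gene for 34958 probe sets, several for 932 and none here for 9211, and only the first kind was used. A probe set was tested when it exceeded the table median on at least 3 arrays, which left 11785 genes, each read by its brightest tested probe set. All 12 arrays entered 1 limma 3.58.1 fit in R 4.3.3 with an intensity trend, 1 mean per group and 8 residual degrees of freedom. Two-sided p-values were adjusted by Benjamini and Hochberg's method over the 11785 genes, and 0.05 was the threshold. The fit was tested on simulated data, with changes planted in the caudal KO values of genes whose within-group SD was below the median. The SDs of Id2, Id3, Bmp7, Bambi and Msx1 lie above that median, so the simulation does not cover genes with their spread.

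Every member is named. From each pathway list, up to 4 genes that passed in a comparison, or else the 2 with the lowest p, could be named. Ttr, Wnt2b, Gdf7, Rspo3, Lhx5 and Smad6 were added after their values were seen. For likeness, the 2 genes of highest Pearson's r per tested member could be named. Members and lists were chosen with earlier results of these data known. Replicates carry different animal numbers. With 3 arrays per group, the number of arrays limits the precision. Alternatives covered quantile normalisation, the filter, dim values raised to the median, no trend, each probe set on its own, animals 13 to 16 as a block, the fit without animals 6 and 12, only the groups compared, and each array left out.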

Additional observations from a re-analysis of the deposited data

How the results depend on the processing

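Of 838 member values recomputed under 21 settings, 797 kept their direction and side of the threshold, 40 changed sign (32 of them with 1 array left out) and 1 passed: Id2 averaged over regions without caudal KO array 1 (0.62, range 0.48 to 0.62 over single arrays left out), which makes 0 to 1 members past the threshold. The cause of these shifts was not tested. No paired analysis was possible because the animal numbers all differ and the groups share no replicate number. Without animals 6 and 12 the sign turned for Id1 (-0.025) and Smad7 (-0.029) in rostral KO against WT, Id4 in the average (-0.0045), the difference of KO effects of Bmp7 (0.059), Id1 (0.13) and Bambi (0.038), and Id3 in caudal against rostral WT (-0.13). With dim values raised, Msx1 averaged -0.051, and under quantile normalisation the difference of effects of Id1 was 0.0022.

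With single arrays left out, values crossing 0 ran as follows. In caudal KO against WT, Id1 ran from -0.056 to 0.11 and Bambi from -0.12 to 0.32. In rostral KO against WT, Id1 ran from -0.037 to 0.17, Id4 from -0.10 to 0.063 and Smad7 from -0.045 to 0.13. In the average, Id1 ran from -0.0073 to 0.10, Id4 from -0.0089 to 0.083 and Msx1 from -0.25 to 0.70. In caudal against rostral cortex, Id3 ran from -0.66 to 0.023 in KO, and in WT Bmp7 ran from -0.43 to 0.15, Id2 from -0.13 to 0.054 and Id3 from -0.017 to 0.27. For the difference of effects, Bambi ran from -0.41 to 0.029, Bmp7 from -0.53 to 0.050 and Id1 from -0.13 to 0.076.

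Counts over all genes moved more. With single arrays left out, genes past the threshold ran from 0 to 1 in caudal and in rostral KO against WT, 1 to 4 in the average, 27 to 134 in caudal against rostral WT and 20 to 143 in KO. With animals 13 to 16 as a block the counts were 4 in caudal KO against WT, 20 in the average, 1 for the difference of effects, 257 for the regions in WT and 342 in KO. With dim values raised they were 4 in rostral KO against WT and 2 in the average. Without the intensity trend they were 2 in the average, 69 for the regions in WT and 56 in KO. Without animals 6 and 12 they were 1 in the average and 22 for the regions in WT, and with only the groups compared 61 in WT and 72 in KO.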
